A study of Mus musculus with 6 samples.

Results

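The genes described here are the clustered replication histone genes of the mouse. They were taken as every row of the 6 count tables whose symbol begins with Hist, a cluster number from 1 to 4 and h, which gave 68 of 23282 rows. By class these are 6 linker histone H1 genes, 18 H2A, 19 H2B, 12 H3 and 13 H4 genes. One of them, Hist3h2bb-ps, is annotated as a pseudogene. RNA was measured in RAW 264.7 cells, a mouse macrophage line that forms osteoclasts when driven to differentiate, at day 5 of osteoclast differentiation. There were 3 CPN samples and 3 control samples, and the series title names a chaperonin of 60 kDa. Both groups had been taken through osteoclast differentiation, and the labels used here give neither the source, the dose nor the time of addition of the chaperonin. The labels name no separate cultures, so the p-values here speak to variation among the 6 libraries, part or all of which may be technical.

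Replication histone genes make the bulk of histone protein while a cell copies its DNA. H2A, H2B, H3 and H4 form the core that DNA wraps around, and H1 binds the DNA between cores. Most messenger RNAs of these genes do not end in a poly(A) tail but in a short stem-loop bound by the protein SLBP, and they are made mainly in S phase. The libraries were made with a kit that the labels name Quant-Seq, a name used for library preparation that starts from poly(A) stretches. How much of the histone messenger RNA without a tail these libraries capture was not tested.

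The stem-loop is shown for members from several classes because it is the feature that sets these transcripts apart. In GENCODE M21 transcripts (build GRCm38), the histone stem-loop pattern, which opens with GG, closes with CC and sets TT, T and A at fixed places between them, was searched on the sense strand in the first 80 bases after the stop codon. It was found in 35 of the 40 members with that much annotated sequence (87.5%), against 26 of 20039 other protein-coding genes (0.13%). Hist1h2ap, whose annotated transcript ends before that window does, also held it. The capitals mark the 16-base stem-loop, with up to 5 bases on each side.
Hist1h2ap: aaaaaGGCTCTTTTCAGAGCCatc
Hist1h2ac: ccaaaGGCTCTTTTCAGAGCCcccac
Hist2h2aa1: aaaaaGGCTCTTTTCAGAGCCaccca
Hist3h2a: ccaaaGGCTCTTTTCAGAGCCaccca
Hist1h1e: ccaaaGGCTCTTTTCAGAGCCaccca
Hist1h3a: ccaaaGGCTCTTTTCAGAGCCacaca
Hist1h4i: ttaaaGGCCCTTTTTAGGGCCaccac

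The poly(A) signal AATAAA lay in the last 40 bases of 14 of 67 protein-coding members (20.9%) and of 57.5% of other protein-coding genes. Of 6 tested members with the signal, 2 passed the test described below as lower, namely Hist1h2ae and Hist2h2be. Of 24 tested members without it, 13 passed as lower, and of all genes tested 6.39% did. Hist1h2bq and Hist1h2br held the signal with no match to the stem-loop pattern in the window and did not pass. Hist2h2be is shown as an example. Its annotated transcript had no match to the stem-loop pattern in the window and ended with the signal, shown in capitals.
Hist2h2be: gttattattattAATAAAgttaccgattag

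Near-identical copies share reads, and how reads with several alignments were treated is not given in the sources used here. To show how alike copies can be, the last 60 coding bases up to and including the stop codon are printed for some H2A members. All of those printed passed the test described below, and they do not stand for the whole class. Capitals mark where a base differs from Hist1h2ap.
Hist1h2ap: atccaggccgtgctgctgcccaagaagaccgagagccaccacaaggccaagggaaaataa
Hist1h2ao: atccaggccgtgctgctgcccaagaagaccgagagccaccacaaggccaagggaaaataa
Hist1h2ag: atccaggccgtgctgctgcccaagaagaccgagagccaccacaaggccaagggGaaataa
Hist1h2an: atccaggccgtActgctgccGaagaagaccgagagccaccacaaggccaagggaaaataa
Hist1h2ak: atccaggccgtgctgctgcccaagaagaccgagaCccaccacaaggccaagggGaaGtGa
Hist2h2aa1: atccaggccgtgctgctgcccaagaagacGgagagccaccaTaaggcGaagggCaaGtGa

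Hist1h2ap and Hist1h2ao did not differ in this stretch, Hist1h2ag differed from Hist1h2ap by 1 base and Hist2h2aa1 by 6. Among members not printed, Hist2h2ab differed by 22 bases, Hist2h2ac by 30, Hist1h2aa by 32 and Hist1h2ah by 35. Bases were compared place by place, so a shift in alignment can raise such a count. Over whole transcripts, 62 of 68 members held at least 1 stretch of 50 bases found letter for letter in another member. In 30 members at least 50% of the 50-base stretches were shared. The median share was 73.0% in H2A, 57.25% in H3, 40.1% in H2B, 39.5% in H4 and 1.1% in H1. Hist1h2ap shared 93.1% of its stretches with Hist1h2ao, and Hist1h2bq shared 100% with Hist1h2br, whereas Hist2h2be shared none with any member. A pair of rows in H2A and one in H3 held the same counts in every library, namely Hist2h2aa1 with Hist2h2aa2 and Hist2h3c1 with Hist2h3c2, so each pair is 1 measurement.

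The 68 members together held 4862, 3094 and 4114 counts in CPN 1 to 3, against 14420, 14415 and 12502 counts in control 1 to 3. Library totals lay between 8267719 and 8423438 in CPN and between 7957228 and 9713938 in control, so 3 counts, the limit that a count of 0 allows, correspond to between 0.309 and 0.377 CPM (counts per 1000000). Counts scaled to library size by TMM, a method that corrects for composition, summed over the members to 499.7 ± 89.6 CPM in CPN and 1534 ± 168 CPM in control (SD, n = 3 each), a 3.07-fold lower sum in CPN. The groups did not overlap. In bulk samples, fewer dividing cells and less histone RNA per cell cannot be told apart. If the libraries start from poly(A) stretches, a smaller share of histone RNA with such a stretch cannot be told apart from them either. Macrophage markers summed to between 2220 and 2800 CPM in CPN and between 2010 and 2510 CPM in control, with 6 of 6 markers detected. The 5 osteoclast markers summed to between 731 and 1180 CPM in CPN and between 3140 and 3430 CPM in control. Stromal markers were low, with sums between 12.2 and 20.4 CPM in CPN and between 0 and 6.23 CPM in control and 5 of 5 detected. Granulocyte markers, with Elane and Camp at 0, summed to between 18 and 34.6 CPM in CPN and up to 0.117 CPM in control. The osteoclast, stromal and granulocyte sums did not overlap between the groups, the macrophage sums did, and their part in the histone result was not tested.

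H2A was the class with most counts, and its sum was the one furthest apart between CPN and control. Whether the libraries captured the classes alike was not tested, so these counts do not rank the classes by RNA level. Summed over the class, H2A stood at 434.6, 294.4 and 385.2 CPM in CPN 1 to 3, against 1192, 1519 and 1272 CPM in control 1 to 3. The lowest control library was above every CPN library, and the mean was 3.57-fold lower in CPN. H2B summed to 70.92, 50.16 and 63.52 CPM in CPN, against 153, 85.29 and 119.8 CPM in control, a 1.94-fold lower mean with no overlap. H1 summed to 47.67 ± 8.66 CPM in CPN, against 63.09 ± 20.8 CPM in control, and its groups overlapped. The log2 ratio of the H1 sums was -0.404, and -0.0855 without control 2. H3 averaged 5.195 ± 2.66 CPM in CPN, against 6.971 ± 0.478 CPM in control, and H4 averaged 13.86 ± 2.69 CPM in CPN, against 17.17 ± 9.86 CPM in control (SD, n = 3 each). Both classes overlapped between the groups. The log2 ratio of the H3 sums was -0.424, and -0.0795 without CPN 2 or -0.842 without CPN 3. Without control 2 the log2 ratio of the H4 sums was 0.277, against -0.308 with it, so no direction is given for H4. These sums were not tested, since they add up rows that share reads. The H2A, H3 and all-member sums count both rows of each identical pair, and whether those rows hold the same reads is not given.

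**Figure D1:**
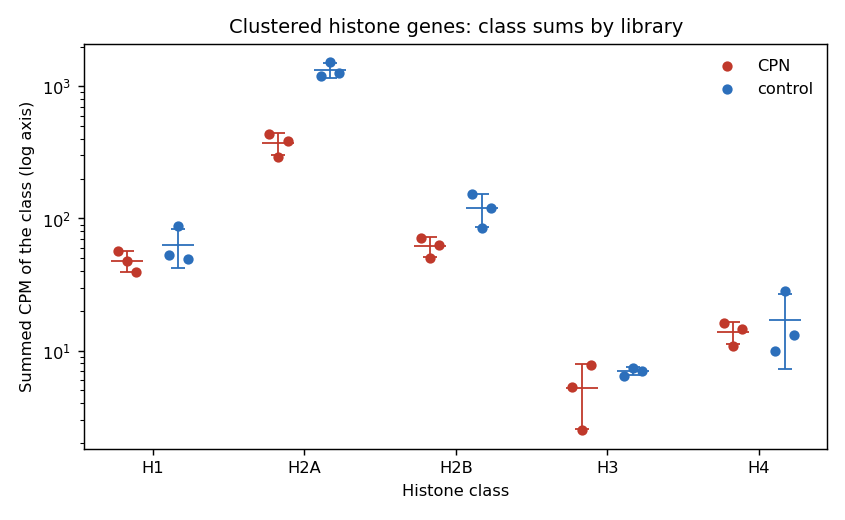
Summed CPM of each histone class in every library, on a log axis, with CPN in red and control in blue; horizontal marks and bars are the mean and SD of 3 libraries. The H2A sums lie between 294.4 and 434.6 CPM in CPN and between 1192 and 1519 CPM in control, and the H1, H3 and H4 sums overlap between the groups.

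Gene by gene, 30 members had enough counts to be tested, of which 15 were lower in CPN, 0 were higher and 15 did not pass (edgeR's quasi-likelihood test, Benjamini-Hochberg adjusted p under 0.05 over all 11092 genes tested). Of all genes tested, 6.39% passed as lower and 7.62% as higher. At an unadjusted edgeR p under 0.05, 18 members were lower and 0 higher, and DESeq2 also gave 0 higher. The median log2 fold change of the 30 was -1.47, against -0.0079 for all genes tested. By class, 14 of 16 tested H2A genes and 1 of 6 tested H2B genes passed, and 0 of 4 H1, 1 H3 and 3 H4 genes did (unadjusted, 1 H1 gene and 0 H3 or H4 genes by edgeR; by DESeq2, the H1 gene Hist1h1b). The 14 H2A rows, which include the identical Hist2h2aa1 and Hist2h2aa2, share sequence and are not 14 separate observations. Members that passed the count filter through their control counts alone, such as Hist1h1b, are among those tested and among those without overlap below. With no filter on low counts 67 members were tested and the same 15 passed. With control 3 and CPN 1 left out together, 4 passed, namely Hist1h2ap, Hist1h2ao, Hist1h2ag and Hist2h2be. The values of CPN and control did not overlap for 17 of the 30 members, all lower in CPN, where 15.7% of tested genes lay that way.

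Hist1h2ap (chromosome 13, 21833026 to 21833507, minus strand) held 45.8% of all H2A counts. It stood at 185.4, 121.1 and 155.6 CPM in CPN 1 to 3, against 542.8, 758.6 and 571.9 CPM in control 1 to 3. Every CPN library was below every control library, and the gene fell by 2.02 ± 0.202 on the log2 scale (SE, edgeR adjusted p = 3.911e-05). Its near-copy Hist1h2ao (chromosome 13, 21810465 to 21810944, plus strand) stood at 91.56, 63.26 and 77.29 CPM in CPN, against 268.7, 378.3 and 291.7 CPM in control, and fell 4.04-fold (edgeR adjusted p = 4.156e-05). The ratio of Hist1h2ap to Hist1h2ao counts lay between 1.92 and 2.02 in CPN libraries and between 1.96 and 2.02 in control libraries, so the ratio hardly varied over the 6 libraries. Together the pair took between 60.5% and 63.7% of H2A counts in CPN and between 67.9% and 74.9% in control.

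The other 10 H2A genes of the Hist1 cluster on chromosome 13 that passed had between 3.02 and 8.64 CPM on average in CPN and between 11.99 and 34.5 CPM in control. Hist1h2ag fell 4.26-fold, with 8.64, 9.168 and 6.451 CPM in CPN against 37.96, 31.98 and 33.43 CPM in control (edgeR adjusted p = 0.0007672). Hist1h2ac fell 4.09-fold, with 7.44, 7.203 and 9.801 CPM in CPN against 37.77, 26.71 and 35.53 CPM in control (edgeR adjusted p = 0.001143). In both genes the groups were well apart, and the spread within CPN was small. Hist1h2an showed the largest fitted fall of those that passed, 4.78-fold, with 3.24, 3.274 and 3.35 CPM in CPN and 15.5, 15.33 and 16.48 CPM in control (edgeR adjusted p = 0.005508). Hist1h2ab fell 3.85-fold, Hist1h2ak 3.84-fold, Hist1h2ae 3.37-fold, Hist1h2ad 3.31-fold, Hist1h2ah 3.08-fold and Hist1h2ai 2.94-fold, with no overlap between groups in any of the 6 (edgeR adjusted p between 0.002266 for Hist1h2ab and 0.01618 for Hist1h2ak). Hist1h2af fell 3.95-fold (edgeR adjusted p = 0.02534). The call of Hist1h2ak ended without CPN 2, control 1 or control 3, and that of Hist1h2af without any 1 library other than control 2 (edgeR adjusted p of Hist1h2ak up to 0.07468).

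Hist2h2aa1 and Hist2h2aa2, the identical rows of the Hist2 cluster on chromosome 3 (96245497 to 96246082, plus strand, and 96239749 to 96240276, minus strand), also fell. Each stood at 42.84, 23.05 and 38.71 CPM in CPN, against 58.66, 73.31 and 75.85 CPM in control. They fell 1.98-fold (edgeR adjusted p = 0.02282), a call that ended without CPN 2, CPN 3 or control 3. The count of Hist2h2aa1 divided by that of Hist1h2ap was 0.231, 0.19 and 0.249 in CPN 1 to 3, against 0.108, 0.0966 and 0.133 in control 1 to 3. That ratio, which was not planned, did not overlap between groups. Its two-sided exact permutation p is 0.1, the smallest that 3 against 3 libraries allow, so this p adds nothing to the lack of overlap.

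Of the remaining H2A genes, Hist3h2a on chromosome 11 shared 2.0% of its 50-base stretches with other members. Its annotated transcript has 1700 bases after the stop codon, and its last 60 coding bases differ from those of Hist1h2ap by 4. It stood at 1.68, 2.096 and 2.109 CPM in CPN, against 7.75, 7.666 and 5.96 CPM in control. The groups did not overlap, yet at these counts it did not pass (log2 fold change -1.85 ± 0.715, edgeR adjusted p = 0.1119), whereas DESeq2 passed it. Hist2h2ac, at 2.232 ± 2.06 CPM in CPN against 4.591 ± 2.607 CPM in control (SD, n = 3 each), overlapped between groups. Hist1h2aa and Hist2h2ab had 12 and 39 counts in all 6 libraries and were not tested.

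**Figure D2:**
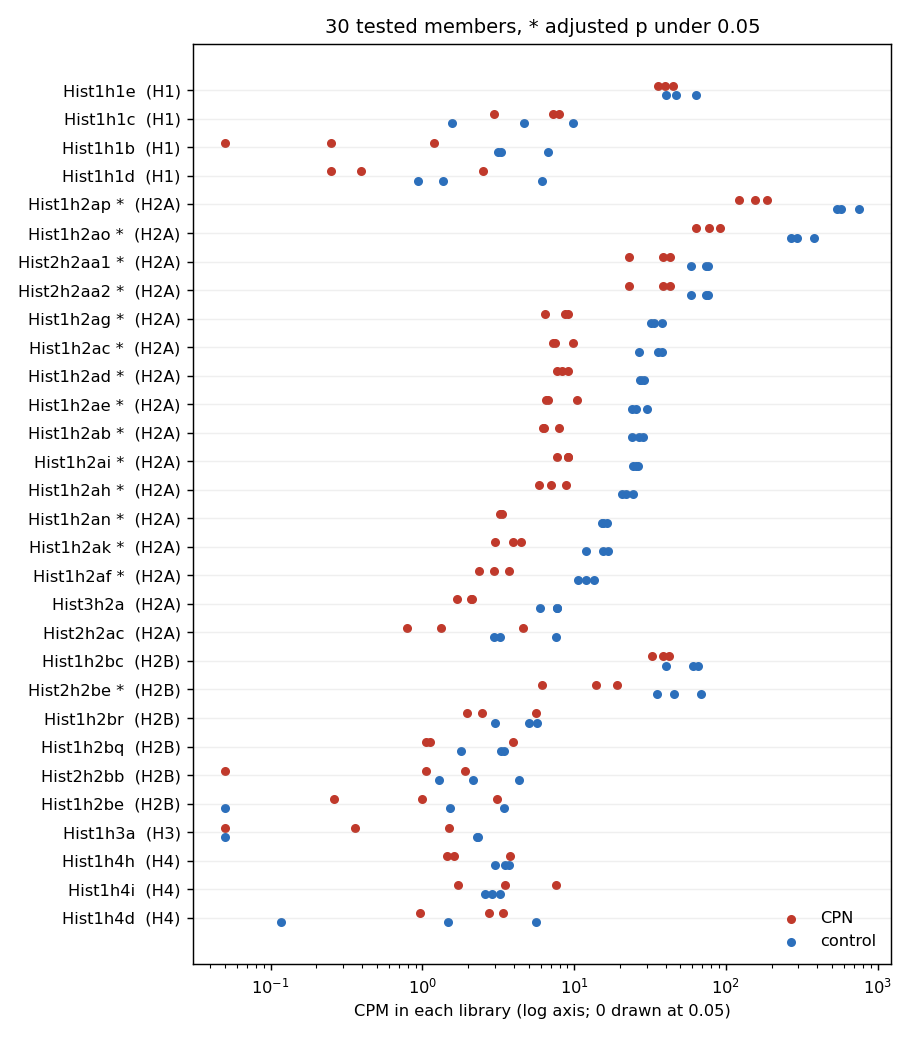
CPM of the 30 tested members in each of 3 CPN (red) and 3 control (blue) libraries, on a log axis with 0 drawn at 0.05, ordered by class and then by level in control. The 15 members marked with a star passed an adjusted p of 0.05, and in each of them every CPN point lies left of every control point.

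Among H2B genes, Hist2h2be (chromosome 3, 96221119 to 96223738, plus strand) was the one that passed. It stood at 19.08, 6.156 and 14.02 CPM in CPN 1 to 3, against 68.57, 34.86 and 45.7 CPM in control 1 to 3. The groups did not overlap and the gene fell 3.79-fold (log2 fold change -1.92 ± 0.396, edgeR adjusted p = 0.005716). No 50-base stretch of its annotated transcript occurs in another member, so an exact read of that length belongs to it alone among these genes. Hist1h2bc (chromosome 13, 23684199 to 23692908, plus strand), with 50.7% of H2B counts, stood at 32.52, 38.64 and 41.93 CPM in CPN, against 65.04, 40.37 and 60.66 CPM in control. Control 2 lay below CPN 3, and the gene missed the threshold (log2 fold change -0.55 ± 0.247, edgeR adjusted p = 0.1715). Without Hist1h2bc the log2 ratio of the H2B sums was -1.43 in place of -0.956. The twin genes Hist1h2bq and Hist1h2br had adjusted p of 0.8253 and 0.7938 by edgeR, and Hist2h2bb and Hist1h2be also overlapped between groups.

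Linker histone genes gave no call. Hist1h1e, which held 81.8% of H1 counts, stood at 44.76, 39.68 and 35.73 CPM in CPN, against 46.89, 63.85 and 40.44 CPM in control. Its log2 fold change was -0.33 ± 0.243 and it did not pass (edgeR adjusted p = 0.4418). It overlaps Hist1h2be in exons on the same strand and shared 23.8% of its 50-base stretches with that gene. Hist1h2be had 84 counts in all and Hist1h1e 2321. How reads in the shared part were assigned is not given. Hist1h1c stood at 7.92, 7.203 and 2.977 CPM in CPN and 1.57, 9.823 and 4.675 CPM in control. Hist1h1b shared no 50-base stretch with another member and had 10, 0 and 2 counts in CPN, against 32, 56 and 28 counts in control. Those groups did not overlap, but with an SE of 1.25 around a log2 fold change of -3.13 the gene did not pass (edgeR adjusted p = 0.1257). DESeq2 passed it. The gene passed the count filter through its control counts alone, so its lack of overlap and its DESeq2 call are a description only. Hist1h1t, the testis-specific H1, was at 0 in every library, and each library allows up to 3 counts.

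Most H3 and H4 genes had too few counts to be tested. Only Hist1h3a could be tested in H3, with 3, 0 and 12 counts in CPN against 0, 19 and 20 counts in control (edgeR adjusted p = 0.6853). The H3 rows with the most counts were the identical Hist2h3c1 and Hist2h3c2, at 9, 0 and 16 counts in CPN and 26, 5 and 1 counts in control, which overlapped. In H4, Hist1h4i had 29, 13 and 61 counts in CPN against 33, 24 and 22 counts in control, with CPN on both sides of control (edgeR adjusted p = 0.753). Hist1h4h and Hist1h4d also overlapped. Single libraries set several H4 values. Hist1h4a had 50 counts in control 2 and at most 6 in any other library, and Hist1h4n had 28 counts in CPN 1, 27 in control 2 and at most 8 elsewhere.

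The 38 members not tested held between 0 and 78 counts each and 1.5% of all member counts. Their CPN total was below their control total in 24, above it in 11 and equal in 3. CPN 2 had 30 of the 68 members at 0, against 8 in CPN 1 and 17 in CPN 3, and between 10 and 14 in the control libraries. Differences in these members were not detectable at this depth.

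**Figure D3:**
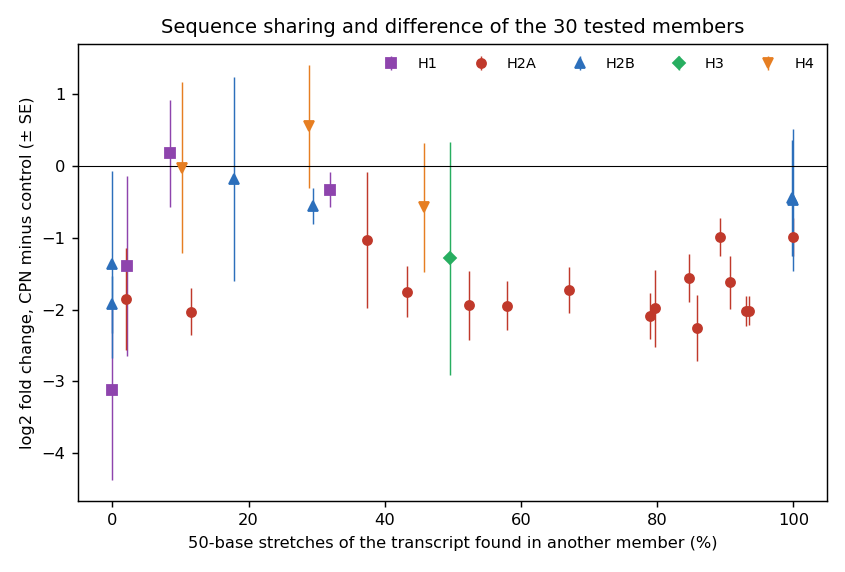
Log2 fold change of the 30 tested members (CPN minus control, ± SE) against the share of their 50-base stretches found in another member, by class. H2A genes lie between -2.26 and -0.99, with shares between 2.0% and 100%, and Hist2h2be lies at -1.92 with no sharing. A long annotated 3′ end lowers the share, and where reads fall in a transcript was not tested.

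Most H2A and H2B genes sit in head-to-head pairs, with a gap under 500 bases between their starts, and 13 such pairs were annotated. The H2A gene passed as lower in 10 of them and the H2B partner in 1, the pair of Hist2h2ac and Hist2h2be. The H2B partner was tested in 4 of these pairs. Over all genes tested, 6.39% passed as lower, and H2A genes of different pairs share sequence. Hist1h2ac fell 4.09-fold beside Hist1h2bc, which did not pass, across a gap of 250 bases. Hist1h2ap and Hist1h2ao fell about alike beside Hist1h2br and Hist1h2bq, which did not pass. These twins had log2 fold changes of -0.44 ± 0.807 and -0.47 ± 0.989 (SE), on 207 and 128 counts in all. With such wide SEs a fall is not excluded, and as twins that share sequence they are not separate observations. Whether the partners' changes differ was not tested.

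Upstream sequence was compared because these genes share elements as well as coding sequence. RefSeq promoter entries on GRCm38.p6 matched 62 members, and the 250 bases before the RefSeq start were searched on both strands. RefSeq starts can differ from the GENCODE ones given above, and the window of Hist1h2ap reaches into its GENCODE gene. The CCAAT box was in 51 of 62 (82.3%), against 34.5% of all 27025 promoters. It was in 18 of 18 H2A and 16 of 16 H2B promoters and in 3 of 12 H4 promoters. The TATA motif TATAAA was in 46.8% of member promoters and 13% of all promoters. The octamer ATTTGCAT, known as an element of H2B promoters, was in 38.9% of H2A and 37.5% of H2B promoters and in 1.61% of all promoters, and it was in none of the H1, H3 or H4 windows. In the head-to-head pairs, with gaps between 172 and 305 bases, the windows of the H2A and H2B gene cover largely the same bases. A site there is found for both genes, so the shares of the H2A and H2B classes are not separate results. A match is a description of letters and not a bound site. The Hist1h2ap window had no exact match to the octamer or TATAAA, and the Hist1h2ac window held all 3 motifs. The Hist1h2ap window does hold tataag, which an exact search for TATAAA does not count. Whether any of these motifs bears on the fall of either gene was not tested. Both windows are shown with matches in capitals.
Hist1h2ap, chr13:21833476-21833725, minus strand: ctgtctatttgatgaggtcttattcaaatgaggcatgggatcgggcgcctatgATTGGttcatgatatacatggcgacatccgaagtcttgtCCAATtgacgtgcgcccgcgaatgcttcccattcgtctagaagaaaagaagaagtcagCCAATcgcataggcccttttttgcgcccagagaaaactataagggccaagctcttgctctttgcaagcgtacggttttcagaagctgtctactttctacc
Hist1h2ac, chr13:23683960-23684209, minus strand: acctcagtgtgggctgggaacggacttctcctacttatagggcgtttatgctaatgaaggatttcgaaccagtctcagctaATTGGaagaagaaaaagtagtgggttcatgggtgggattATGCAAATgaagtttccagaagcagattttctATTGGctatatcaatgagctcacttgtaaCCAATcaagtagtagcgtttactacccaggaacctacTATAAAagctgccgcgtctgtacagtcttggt

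Histone genes outside the clusters, most of them replication-independent variants with ordinary poly(A) tails, were read beside the clustered ones. H2afx among them is known to make a stem-loop messenger RNA as well as a polyadenylated one. Of 11 tested, 5 fell, 0 rose and 6 did not pass (unadjusted 6 lower and 0 higher; DESeq2 5 and 0), with a median log2 fold change of -0.41. Over all genes tested, 6.39% passed as lower and 7.62% as higher. Cenpa, the H3 variant of centromeres, fell 4.88-fold, with 31.32, 17.03 and 17.49 CPM in CPN against 145.3, 49.83 and 126.3 CPM in control (edgeR adjusted p = 0.001333). H1f0, the linker histone of resting and differentiated cells, fell to 95.42 ± 12.92 CPM in CPN, against 254.9 ± 89.06 CPM in control (edgeR adjusted p = 0.001486, n = 3 each). H2afz, which encodes the variant H2A.Z, fell 1.91-fold (edgeR adjusted p = 0.003598), and H2afx, the variant phosphorylated at DNA breaks, fell 2.93-fold (edgeR adjusted p = 0.005979). H3f3a and H3f3b, the genes of the replacement histone H3.3, had log2 fold changes of -0.41 and -0.38 and did not pass (edgeR adjusted p = 0.164 and 0.1933).

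Of 22 tested genes of histone messenger RNA transcription and 3′ processing, 0 passed by edgeR or DESeq2, with 2 lower and 1 higher at an unadjusted edgeR p under 0.05. Slbp, the stem-loop binding protein, stood at 13.8, 27.24 and 25.56 CPM in CPN, against 23.35, 19.29 and 24.08 CPM in control. Npat, the coactivator of histone genes in S phase, averaged 34.13 ± 4.154 CPM in CPN, against 30.58 ± 5.456 CPM in control (SD, n = 3 each; edgeR adjusted p = 0.9974 for Slbp and 0.7679 for Npat). Histone chaperones gave 3 lower and 2 higher of 28, where 6.39% of all genes tested were lower and 7.62% higher, so the list is not set apart by these counts. Asf1b, a chaperone of H3 and H4 in dividing cells, fell 2.87-fold (edgeR adjusted p = 0.009789) and Hjurp, the chaperone of CENP-A, fell 1.96-fold (edgeR adjusted p = 0.03955). Daxx, a chaperone of H3.3, rose 1.99-fold (edgeR adjusted p = 0.01045), and Npm1, nucleophosmin, rose 1.42-fold (edgeR adjusted p = 0.04042). Asf1b lost its call without CPN 1, CPN 2 or control 1 (adjusted p up to 0.06518), and Daxx without CPN 1 or control 3 (up to 0.06165). Hjurp lost it without any 1 library other than control 2 (up to 0.1823) and with limma-voom (0.05869). Npm1 lost it without CPN 2, CPN 3, control 1 or control 3 (up to 0.2042) and with library totals alone (0.0976). Lower chaperones numbered 0 without CPN 1, CPN 2 or control 1, 1 without control 3 and 8 without control 2.

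S phase genes, with which replication histone genes are normally expressed, gave 11 lower and 0 higher of 33 (unadjusted 19 and 0; DESeq2 15 and 0), with a median log2 fold change of -0.89. Over all genes tested, 6.39% passed as lower and 7.62% as higher. Rrm1, a subunit of the enzyme that makes DNA precursors, stood at 29.76, 35.1 and 34.61 CPM in CPN against 93.39, 60.01 and 94.55 CPM in control (edgeR adjusted p = 0.002463). Mcm6 and Mcm3, of the helicase that opens DNA for copying, fell 4.69-fold and 2.50-fold, and Tk1, thymidine kinase, fell 2.88-fold (edgeR adjusted p = 0.00264, 0.005414 and 0.008465). The proliferation gene Mki67 fell by 2.86 ± 0.266 on the log2 scale (edgeR adjusted p = 2.462e-05). With control 3 and CPN 1 left out together 0 of the 33 S phase genes passed. With 1 library left out, 5 were lower without CPN 1, 6 without CPN 2, 4 without control 1 or control 3 and 17 without control 2.

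**Figure D4:**
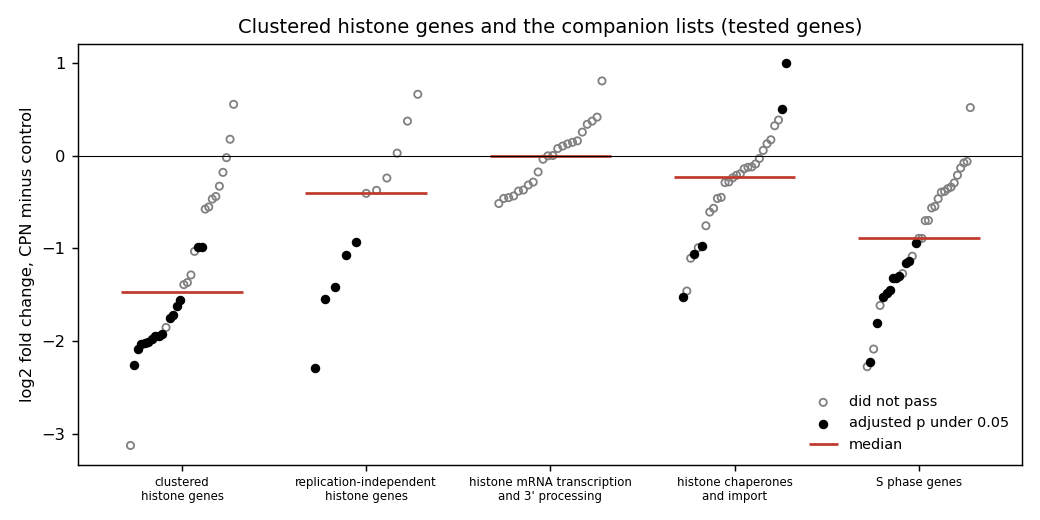
Log2 fold change (CPN minus control) of every tested gene among the clustered histone genes and the 4 companion lists, with filled points for an adjusted p under 0.05 and a red line at the median. The median lies at -1.47 for the clustered histone genes, -0.41 for replication-independent histone genes and -0.89 for S phase genes, with the processing list near 0.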

How the data were processed

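Whole-number counts for each gene were deposited by the authors, with a table for every sample. The submitters' processing notes list the build mm10 and the tools Bowtie2 and bedtools, without the role of either tool. Not given in the sources used here: the gene annotation, whether counting used strand, and how multiply aligned reads were handled. Differences per gene came from edgeR 4.0.16 under R 4.3.3 (TMM, filterByExpr with minimum count 10 and minimum total 15, quasi-likelihood test, Benjamini-Hochberg adjustment over 11092 genes, threshold 0.05). The SE is the size of the log2 fold change divided by the square root of F. Alternatives were RLE factors, library totals, DESeq2 1.42.0, limma-voom 3.58.1, other filters, a replicate block and left-out libraries. The code was tested on simulated counts. Coordinates and transcripts are from GENCODE M21 (GRCm38, the assembly named mm10), with 1 transcript per gene, the longest protein-coding one, for each sequence measure. Copy identity was planned on proteins and measured on these transcripts in their place. Named genes are up to 12 members that passed by smallest p, the member with most CPM per class, up to 4 that passed per list, Slbp, Npat and Mki67. Other genes were named after their values were seen. The lymphoid marker list is not reported here. The members and lists were chosen with earlier results of these data known.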

Additional observations from a re-analysis of the deposited data

How the results depend on the processing

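No member of the clustered histone genes passed as higher under any alternative run. The 15 lower calls were 15 with RLE factors, library totals alone, no filter, a minimum count of 5 or 20 and Rn45s removed, 17 with DESeq2, 14 with limma-voom, and between 11 and 15 with 1 library left out. With control 3 and CPN 1 left out together 4 members and 446 of all genes passed, fewer samples being the construction of that fit. All genes called ranged between 884 and 1954 with 1 library left out. With library totals alone, the median over all genes was -0.129 (log2), so lower calls there are relative to that shift.

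The log2 ratio of the H2A sums lay between -1.97 and -1.69 with 1 library left out, that of H4 between -0.585 and 0.277, and that of H2B was -1.43 without Hist1h2bc. Lower replication-independent histone genes numbered 2 with control 3 and CPN 1 left out, and lower processing genes 1 with library totals alone. Higher chaperones numbered 1 with library totals alone or the replicate block, 0 with control 3 and CPN 1 left out and between 0 and 2 with 1 library left out. Lower chaperones numbered 6 with library totals alone, DESeq2 or no filter, 0 with control 3 and CPN 1 left out and between 0 and 8 with 1 left out. Lower S phase genes numbered 17 with no filter, 0 with both left out and between 4 and 17 with 1 left out. Slbp had a log2 fold change of 0.0025 with RLE factors and with DESeq2, 0.0009 with Rn45s removed, 0.31 with both left out and between -0.17 and 0.25 with 1 left out, and Hist1h4i between -0.16 and 0.94. The cause of these moves was not tested.

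Samples with the same replicate number did not deviate together (correlations of deviations -0.204, 0.0139 and 0.0705 for numbers 1 to 3, with 2 of 6 samples correlating best with their own number). With the replicate block, 14 members and 1326 of all genes passed, and Hist1h2af, Hjurp (edgeR adjusted p = 0.07845) and Npm1 (0.07875) did not.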

Other observations

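Within the control libraries, H2A and S phase genes ranked the libraries differently. Control 2 had the highest H2A sum, at 1519 CPM against 1192 in control 1 and 1272 in control 3, and the lowest sum over the 33 S phase genes, at 1250 CPM against 2386 and 1981 CPM. It also had the lowest Cenpa, at 49.83 CPM, and the lowest Mki67, at 141.5 CPM. In the CPN libraries the S phase sums were 855.6, 963.4 and 1203 CPM, and CPN 3 at 1203 CPM lay close to control 2, whereas its H2A sum of 385.2 CPM was far below 1519 CPM. CPN 3 was also below control 2 for Mki67, at 17 CPM against 141.5 CPM, and for Cenpa, at 17.49 CPM against 49.83 CPM. With 3 libraries a group this is a description only.

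The H2A class made up between 72.7% and 75.5% of the counts of all clustered histone genes in CPN and between 84.3% and 88% in control. Hist2h2aa1 and Hist2h2aa2 took between 15.7% and 20.1% of H2A counts in CPN and between 9.65% and 11.9% in control.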
